A study of Mus musculus with 21 samples.

Results

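The skeletal muscle sarcomere genes described here are 43 mouse genes for the contractile apparatus of striated muscle and for its calcium and energy supply. They were found by exact match of the gene name in the table of counts for skin, and all 43 names were matched, among 55491 genes in all. Of the 43, 15 are characteristic of fast fibres, 7 of slow fibres and 21 are used by both fibre types. The study follows *Ifnk* TG mice, which carry *Ifnk*, a gene for a type I interferon, under the keratin 14 promoter and develop skin lesions that resemble cutaneous lupus. The transgene was made in C57Bl/6 mice with PiggyBac, and the line was backcrossed to BALB/c, the strain of the wild-type (WT) mice. RNA of untreated skin at 12 months of age was sequenced from 3 WT samples, 2 nonlesional *Ifnk* TG samples (TG NL) and 4 lesional *Ifnk* TG samples (TG L). A further 12 libraries came from inguinal lymph nodes of both genotypes, left untreated or given UVB, and held between 27599809 and 36428435 counts. By the study's methods, UVB of 250 mJ/cm2 was given 3 times a week for 2 weeks, and nodes were taken after 2 further weeks.

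A sarcomere is the repeating unit of striated muscle, in which thick filaments of myosin pull on thin filaments of actin. Troponin and tropomyosin on the thin filament hold contraction back until calcium is released from the sarcoplasmic reticulum, and fast and slow fibres build these parts from different paralogs. Mouse skin of the trunk carries a thin sheet of striated muscle, the panniculus carnosus, under the dermis and fat. The labels do not give how deep the skin was sampled.

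Libraries are named by group and by the sample number of the labels, as in WT 8 or TG L 5. The 9 skin libraries held from 40499078 counts (TG L 5) to 56511276 counts (TG L 4), with a median of 43994849, and all carry batch 1. No sex or mouse is given for a library, nor a body site. For the groups, the study places lesions mostly on the face, with others on the back and limbs, and took nonlesional skin from the back and from areas that matched the lesions. Such details do not reach single libraries, and whether replicates came from separate animals is not stated, so each p-value below measures the spread between these samples. At these depths, 3 counts correspond to between 5.31e-06% and 7.41e-06% of a library. Intervals and floors given here cover counting error only. *Ifnk* itself had 0 counts in all 3 WT libraries, 6 and 0 in TG NL 2 and TG NL 3, and 14, 11, 5 and 8 in TG L 4, 5, 6 and 7. With 0 counts, TG NL 3 was not told apart from WT by *Ifnk*, and the floor of 3 counts was 7.16e-06% of that library. Genes of the epidermis were abundant in every skin library, as described further on.

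Levels are CPM, the counts relative to a library size scaled by TMM, and values are listed in the order WT 8, 9 and 10, TG NL 2 and 3, and TG L 4, 5, 6 and 7. The 4 TG L libraries did not form a tight group for these genes. For most of the 43 genes TG L 4 stood above the other 3 and TG L 5 below them. For this reason counts of genes that passed are given below with and without these libraries, and also without any other library that changed a count more than 1.5 times. Counts with a library left out stand without the share of all tested genes in the same setting. They show how calls depend on a library, not how these genes differ from others.

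The 43 genes together took 5.78%, 6.9% and 7.97% of all counts in WT skin. In TG NL skin their share was 5.37% and 5.99%. In TG L skin it was 1.57% (95% Wilson interval 1.57 to 1.57), 0.0192% (0.0188 to 0.0196), 0.101% (0.0996 to 0.102) and 0.376% (0.374 to 0.378). Every TG L library thus lay below every TG NL and WT library, and TG L 4 held 84.3 times the summed CPM of TG L 5, against a ratio of 1.37 between the highest and the lowest WT library. The mean share was 6.89% ± 1.1 (SD, n = 3) in WT, 5.68% ± 0.439 (SD, n = 2) in TG NL and 0.517% ± 0.719 (SD, n = 4) in TG L skin. Relative to the WT mean, the summed CPM was 72.7% and 85.7% in TG NL and 22.5%, 0.267%, 1.31% and 4.81% in TG L skin. In bulk tissue, fewer muscle fibres in a sample and less of these transcripts per fibre cannot be told apart.

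**Figure D1:**
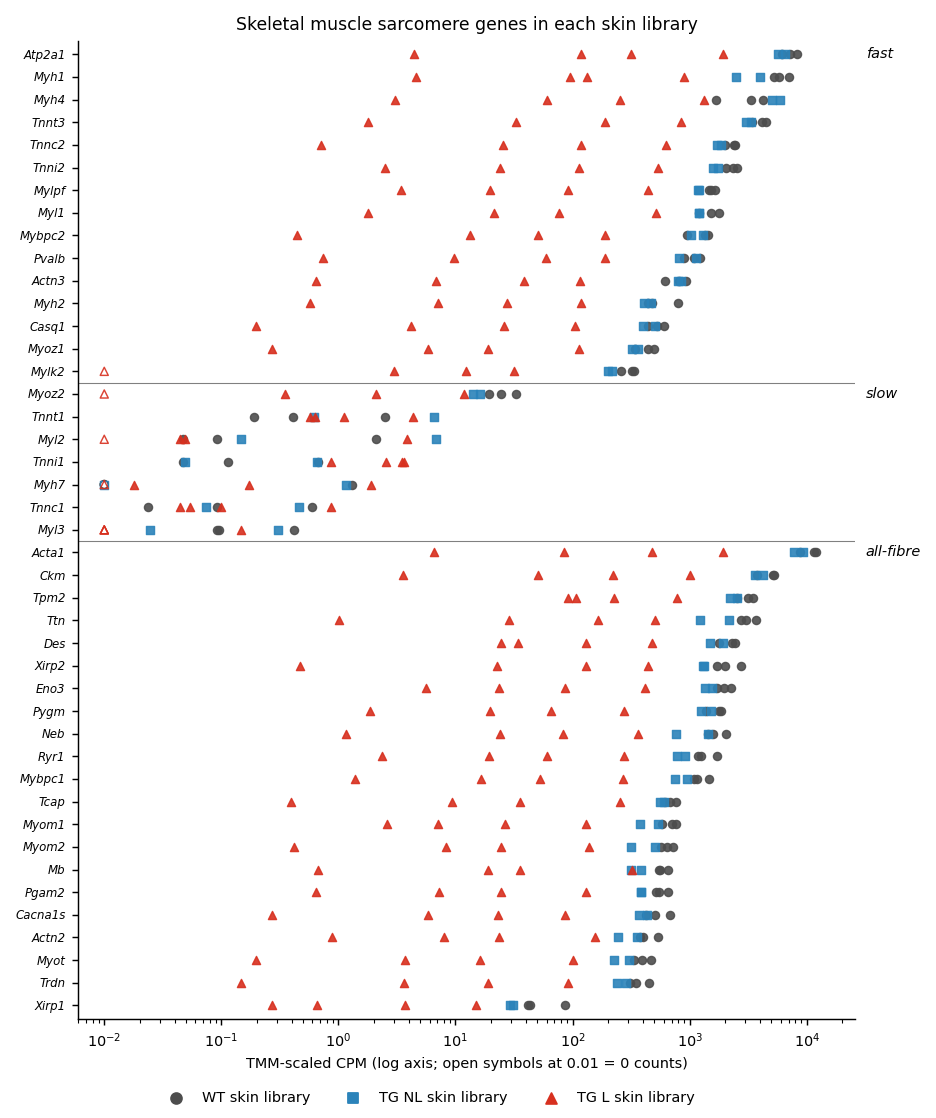
TMM-scaled CPM of each of the 43 genes (log axis) in the 9 skin libraries, with fast, slow and all-fibre genes in separate blocks and open symbols for 0 counts. In 37 of 43 genes (against 23.4% of all tested genes) all 4 TG L libraries lay below all 3 WT libraries, *Tnni1* lay above, and the other 5 genes, all slow, overlapped.

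Most members kept the same order among the TG L libraries. In 36 of the 43 genes the order from high to low was TG L 4, 7, 6 and 5, and 42 genes were highest in TG L 4, the exception being *Tnni1*. TG L 5 was lowest for 37 genes, ties at 0 counts included. Over the 38 genes with a count in each TG L library, the ratio of the highest to the lowest TG L library had a median of 270, from 4.22 for *Tnni1* to 934 for *Xirp2*. The corresponding median ratio between WT libraries was 1.38. The median gene retained 72.6% and 77.7% of its WT mean in TG NL 2 and 3, and 22.9%, 0.0818%, 1.24% and 4.87% in TG L 4, 5, 6 and 7.

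Thick filaments are built from myosin heavy chains, and fast fibres of adult mice use *Myh4* (type IIB), *Myh1* (type IIX) and *Myh2* (type IIA). *Myh1* (ENSMUSG00000056328, chr11:67200052-67224575) stood at 5776, 5226 and 7029 CPM in WT, 2509 and 3954 CPM in TG NL, and 898, 4.59, 95.4 and 134 CPM in TG L skin. *Myh4* (ENSMUSG00000057003, chr11:67238029-67260446) stood at 1665, 3350 and 4241 CPM in WT, 5018 and 5869 CPM in TG NL, and 1333, 3.06, 60.6 and 255 CPM in TG L skin. *Myh2* (ENSMUSG00000033196, chr11:67171027-67197517) stood at 438, 478 and 796 CPM in WT, 406 and 465 CPM in TG NL, and 119, 0.567, 7.09 and 27.7 CPM in TG L skin. All TG L libraries were below all WT and TG NL libraries for the 3 genes, and *Myh4* was the only member of the 43 with both TG NL libraries above all 3 WT libraries (18.6% of all tested genes). Differences between groups were tested for each gene with edgeR's quasi-likelihood F-test and adjusted over 19101 tested genes by the Benjamini-Hochberg method, and SE is the standard error of the log2 fold change. *Myh1* fell from WT to TG L skin, lower in 4 of 4 libraries (log2 fold change -4.41, SE 1.33, adjusted p = 0.029). So did *Myh2*, also lower in 4 of 4 (log2 fold change -3.89, SE 1.32, adjusted p = 0.044). *Myh4* was lower in 4 of 4 but did not pass the threshold of 0.05 (log2 fold change -2.90, SE 1.43, adjusted p = 0.137). *Myh1* no longer passed without WT 8, WT 9, WT 10, TG L 6 or TG L 7 (adjusted p = 0.0571, 0.0546, 0.0614, 0.0619 and 0.0818). *Myh2* passed without TG L 4 or TG L 5 (adjusted p = 0.00822 and 0.0234) but not without any 1 of the other 7 libraries (0.0677 to 0.113). Of the 9 libraries left out in turn, *Myh4* passed only without TG L 4 (adjusted p = 0.0229, otherwise 0.0895 to 0.257).

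The balance of the heavy chains differed between libraries. Among the counts of *Myh1*, *Myh2*, *Myh4* and the slow heavy chain *Myh7*, *Myh1* took 73.3%, 57.7% and 58.3% in WT and 31.6% and 38.4% in TG NL skin. *Myh4* took 21.1%, 37% and 35.1% in WT and 63.2% and 57% in TG NL skin. The ratio of *Myh1* to *Myh4* was therefore above 1 in each WT library (3.47, 1.56 and 1.66) and below 1 in each TG NL library (0.5 and 0.674). Among TG L libraries it was 0.674 and 0.525 in TG L 4 and 7, as in TG NL, and 1.5 and 1.57 in TG L 5 and 6, as in WT 9 and 10. In TG L 5 the shares rest on 340 counts, with *Myh1* at 54.7% (95% Wilson interval 49.4 to 59.9) and *Myh4* at 36.5% (31.5 to 41.7). *Myh2* took between 4.35% and 6.76% in the 9 libraries. The 3 fast heavy chain genes lie side by side on chromosome 11 with gaps of 2.54 and 13.5 kb, and their transcripts are alike in sequence. RSEM divides reads that match several of them, so the split between them is uncertain. No test was run on a share.

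**Figure D2:**
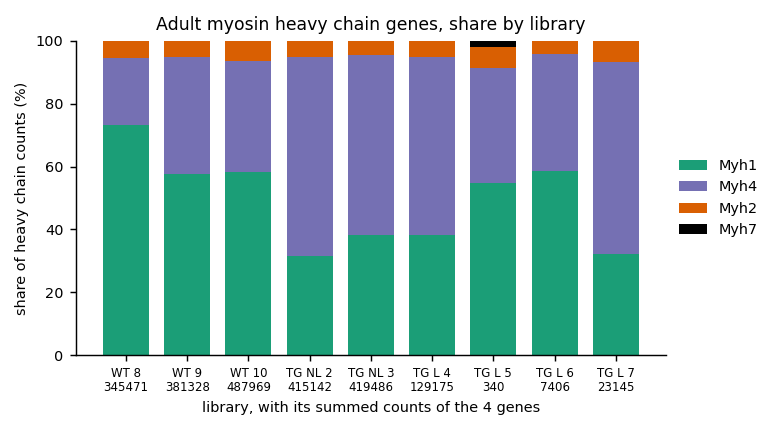
Share of each of 4 adult myosin heavy chain genes in their summed counts (%), 1 bar per skin library, with the summed counts under each bar. *Myh1* held the larger part in the 3 WT libraries and in TG L 5 and 6, and *Myh4* in both TG NL libraries and in TG L 4 and 7.

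Other thick filament members are the light chains, the myosin-binding proteins and a kinase. *Mylk2*, which encodes the skeletal muscle kinase for myosin light chain (ENSMUSG00000027470, chr2:152911352-152923068), stood at 258, 334 and 322 CPM in WT, 202 and 219 CPM in TG NL, and 31.7, 0, 3 and 12.2 CPM in TG L skin. It was the fast member without a count in TG L 5 and fell in TG L skin, lower than WT in 4 of 4 libraries (log2 fold change -4.70, SE 1.33, adjusted p = 0.0226). The fast light chains *Mylpf* and *Myl1* averaged 1547 ± 99.8 and 1497 ± 291 CPM (SD, n = 3) in WT skin and 140 ± 207 and 154 ± 244 CPM (SD, n = 4) in TG L skin, and did not pass (adjusted p = 0.0598 and 0.0923, log2 fold changes -3.47 and -3.28, lower in 4 of 4 libraries). TG L 4 carried most of both TG L means. In TG L 4, 5, 6 and 7 *Mylpf* stood at 444, 3.43, 19.6 and 91.5 CPM. *Myl1* stood at 517, 1.8, 21.2 and 77 CPM in the same libraries. Both genes passed without TG L 4 (adjusted p = 0.00691 and 0.00846), and *Mylpf* also without TG L 5 (0.0421). The myosin-binding proteins C of fast fibres, *Mybpc2* (log2 fold change -4.29, SE 1.40, adjusted p = 0.0388), and of fibres of either kind, *Mybpc1* (log2 fold change -3.86, SE 1.33, adjusted p = 0.0464), fell in TG L against WT skin, each lower in 4 of 4. *Mylk2* no longer passed without TG L 7 (adjusted p = 0.0657). *Mybpc2* passed without TG L 4 or TG L 5 (adjusted p = 0.0122 and 0.0132) but not without any 1 of the other 7 libraries (0.0609 to 0.102). *Mybpc1* passed without TG L 4 or TG L 5 (adjusted p = 0.00636 and 0.025) but not without any 1 of the other 7 libraries (0.0704 to 0.118).

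The thin filament is made of skeletal actin. *Acta1* (ENSMUSG00000031972, chr8:123891769-123894751) had the highest level per kilobase of transcript among the 43 genes, a mean of 7019 CPM per kb in WT skin, followed by the fast troponin C gene *Tnnc2* at 2844 and the fast troponin T gene *Tnnt3* at 2534. *Acta1* stood at 8748, 11539 and 12056 CPM in WT, 7863 and 9217 CPM in TG NL, and 1936, 6.51, 84.5 and 474 CPM in TG L skin. All TG L libraries were below all others, and the gene fell from WT to TG L skin, lower in 4 of 4 libraries (log2 fold change -4.11, SE 1.43, adjusted p = 0.0481). *Acta1* passed without TG L 4 or TG L 5 (adjusted p = 0.0123 and 0.0228) but not without any 1 of the other 7 libraries (0.0726 to 0.119).

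Promoters are shown for *Acta1* and *Myoz2*, the genes with the highest level per kilobase among the all-fibre and the slow genes in the table of promoters, to set letters beside members that moved together across libraries. They are the 250 bases before the RefSeq start in build GRCm38.p6, written 5′ to 3′ on the gene's own strand, the minus strand in both: chr8:123894776-123895025 for *Acta1* and chr3:123034988-123035237 for *Myoz2*. The RefSeq start lay 24 bases before the start in GENCODE vM21, the source of the gene positions given here, for *Acta1*, and 28 bases after it for *Myoz2*, so the last 28 bases shown for *Myoz2* lie in the gene by that annotation. Capitals mark the E-box CANNTG, the TATA box TATAAA, the CArG box (serum response factor motif) and the MEF2 box.
Acta1: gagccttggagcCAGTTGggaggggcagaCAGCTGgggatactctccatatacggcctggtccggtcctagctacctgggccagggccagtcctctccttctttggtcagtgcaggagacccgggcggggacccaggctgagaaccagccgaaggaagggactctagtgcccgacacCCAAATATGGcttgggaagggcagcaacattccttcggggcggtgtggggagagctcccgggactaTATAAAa
Myoz2: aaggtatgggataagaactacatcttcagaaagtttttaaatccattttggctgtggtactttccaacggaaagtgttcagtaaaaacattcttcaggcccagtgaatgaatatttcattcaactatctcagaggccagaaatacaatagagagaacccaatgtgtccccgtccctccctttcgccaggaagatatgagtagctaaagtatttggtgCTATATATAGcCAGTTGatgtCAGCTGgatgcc
*Acta1* held E-boxes 238 and 221 bases before the start, a CArG box at 73 and a TATA box at 7. *Myoz2* held a MEF2 box at 33 and E-boxes at 22 and 12, counted from the RefSeq start. Searched on both strands, the E-box was in 28 of the 32 members with a promoter in the table (87.5%) and in 64.1% of 20962 promoters. The MEF2 box was in 7 of 32 (21.9%) against 2.84%, namely in *Myh1*, *Myh4*, *Pvalb*, *Myoz2*, *Ttn*, *Xirp2* and *Pgam2*. The CArG box was in 4 of 32 (12.5%) against 1.35%, in *Myh4*, *Myl3*, *Acta1* and *Myom1*, and the TATA box in 6 of 32 (18.8%) against 12.3%. The RefSeq start was within 50 bases of the vM21 start for 19 of the 32 members, so windows of the others may not lie upstream by that annotation. A match describes the letters in this window and was not read as a bound site.

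Troponin and tropomyosin regulate the thin filament. *Tnnt3*, the fast troponin T gene that ties the troponin complex to tropomyosin (ENSMUSG00000061723, chr7:142498836-142516009), stood at 3435, 4110 and 4487 CPM in WT, 3046 and 3347 CPM in TG NL, and 841, 1.8, 33 and 190 CPM in TG L skin. The fast inhibitory subunit *Tnni2* averaged 2320 ± 240 CPM (SD, n = 3) in WT and 168 ± 247 CPM (SD, n = 4) in TG L skin, and *Tnnc2* 2275 ± 220 and 192 ± 292 CPM. Here too TG L 4 carried most of the TG L means. In TG L 4, 5, 6 and 7 *Tnni2* stood at 532, 2.49, 24 and 113 CPM. *Tnnc2* stood at 624, 0.715, 25.4 and 118 CPM. TG L lay below WT in 4 of 4 libraries for each of the 3 fast troponin genes, and none of them passed (adjusted p = 0.0632 for *Tnnt3*, 0.0539 for *Tnni2* and 0.0916 for *Tnnc2*, log2 fold changes -3.91, -3.79 and -3.57). Without TG L 4 all 3 passed (adjusted p = 0.0153, 0.0089 and 0.0187), and without TG L 5 as well (0.0307, 0.0311 and 0.0428), but not without any other library. *Tpm2*, which encodes beta-tropomyosin (ENSMUSG00000028464, chr4:43514711-43523765), stood at 2527, 3132 and 3465 CPM in WT, 2206 and 2556 CPM in TG NL, and 787, 107, 91.5 and 227 CPM in TG L skin. Its lowest TG L libraries were TG L 6 and TG L 5, and in TG L 5 it made up 55.6% of the summed CPM of all 43 genes. Between its highest and lowest TG L library the ratio was 8.6, against a median of 270 over the members with a count in each. *Tpm2* fell in TG L against WT skin, lower in 4 of 4 (log2 fold change -3.33, SE 0.73, adjusted p = 0.00788), and against TG NL skin, again in 4 of 4 (log2 fold change -2.97, SE 0.77, adjusted p = 0.0261). Against WT it passed without each library in turn, with adjusted p from 0.000152 to 0.0293. Against TG NL it did not pass without TG NL 2, TG NL 3 or TG L 7 (adjusted p = 0.0951, 0.118 and 0.0697).

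Z-discs anchor the thin filaments, M-bands the thick ones, and titin spans from one to the other. *Actn3*, the Z-disc actinin of fast fibres (ENSMUSG00000006457, chr19:4861216-4877909), stood at 611, 806 and 935 CPM in WT, 849 and 797 CPM in TG NL, and 115, 0.641, 6.79 and 38.3 CPM in TG L skin. *Des*, for the intermediate filament that links Z-discs (ENSMUSG00000026208, chr1:75360329-75368579), stood at 1797, 2299 and 2454 CPM in WT, 1486 and 1931 CPM in TG NL, and 481, 24.5, 34.3 and 130 CPM in TG L skin. Both were lower in each TG L library than in any other skin library, and *Des* kept over 20 CPM in TG L 5, where *Actn3* had under 1. *Myom1*, for the M-band protein myomesin (ENSMUSG00000024049, chr17:71002633-71126856), stood at 586, 704 and 762 CPM in WT, 374 and 535 CPM in TG NL, and 130, 2.59, 7.09 and 26.6 CPM in TG L skin. *Ttn*, for titin (ENSMUSG00000051747, chr2:76703980-76982547), stood at 3044, 2729 and 3724 CPM in WT, 1217 and 2164 CPM in TG NL, and 508, 1.01, 28.4 and 165 CPM in TG L skin. *Xirp1*, for an actin-binding protein of the Xin family (ENSMUSG00000079243, chr9:120013755-120023598), stood at 41.6, 42.9 and 86.7 CPM in WT, 29.1 and 31.1 CPM in TG NL, and 15.1, 0.271, 0.661 and 3.68 CPM in TG L skin. For these 3 genes both TG NL libraries were also below all 3 WT libraries.

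Each of these 5 genes fell in TG L against WT skin, lower in 4 of 4 libraries. They were *Actn3* (log2 fold change -4.28, SE 1.31, adjusted p = 0.0304), *Des* (log2 fold change -3.71, SE 0.97, adjusted p = 0.0169) and *Myom1* (log2 fold change -4.04, SE 1.16, adjusted p = 0.0242). The others were *Xirp1* (log2 fold change -3.52, SE 1.10, adjusted p = 0.0334) and *Ttn*, closest to the threshold (log2 fold change -4.17, SE 1.46, adjusted p = 0.0493). *Des* also fell against TG NL skin (log2 fold change -3.35, SE 1.02, adjusted p = 0.0451, 4 of 4 libraries lower). *Des* no longer passed without TG L 7 (adjusted p = 0.054). *Myom1* no longer passed without WT 9, WT 10 or TG L 7 (adjusted p = 0.0515, 0.0532 and 0.072). *Actn3* passed without TG NL 3, TG L 4 or TG L 5 (adjusted p = 0.0494, 0.0102 and 0.0139) but not without WT 8, WT 9, WT 10, TG NL 2, TG L 6 or TG L 7 (0.0503 to 0.0826). *Xirp1* passed without TG L 4 or TG L 5 (adjusted p = 0.00284 and 0.0349) but not without any 1 of the other 7 libraries (0.0514 to 0.0912). *Ttn* passed without TG L 4 or TG L 5 (adjusted p = 0.0208 and 0.0177) but not without any 1 of the other 7 libraries (0.0729 to 0.118). With 1 library left out, *Des* passed against TG NL skin only without TG L 4 (adjusted p = 0.00305), and without each of the other 8 libraries its adjusted p was from 0.0506 to 0.17.

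Calcium is released through the ryanodine receptor *Ryr1* when the channel subunit *Cacna1s* senses the voltage, and is pumped back by the fast-fibre calcium ATPase *Atp2a1*. *Atp2a1* (ENSMUSG00000030730, chr7:126445858-126463108), the fast member with the highest CPM, stood at 6180, 7187 and 8257 CPM in WT, 5709 and 6571 CPM in TG NL, and 1913, 4.44, 119 and 314 CPM in TG L skin. *Ryr1* (ENSMUSG00000030592, chr7:29003344-29125179) stood at 1169, 1247 and 1697 CPM in WT, 783 and 908 CPM in TG NL, and 276, 2.37, 19.5 and 60.7 CPM in TG L skin. *Cacna1s* (ENSMUSG00000026407, chr1:136052750-136119822) stood at 421, 504 and 676 CPM in WT, 372 and 431 CPM in TG NL, and 86, 0.271, 5.77 and 23 CPM in TG L skin. All 3 were lowest in TG L 5 and highest among TG L libraries in TG L 4, with no overlap between TG L and the other groups. *Ryr1* and *Cacna1s* fell in TG L against WT skin in 4 of 4 libraries, *Ryr1* (log2 fold change -3.93, SE 1.24, adjusted p = 0.0343) as well as *Cacna1s* (log2 fold change -4.21, SE 1.34, adjusted p = 0.0349). *Atp2a1* did not pass, though it was lower in 4 of 4 (log2 fold change -3.62, SE 1.42, adjusted p = 0.0722). It passed without TG L 4 (adjusted p = 0.011) or TG L 5 (adjusted p = 0.0324), and not without any other library (0.103 to 0.164). The calcium buffer *Pvalb* of fast fibres fell as well, lower in 4 of 4 (log2 fold change -4.04, SE 1.36, adjusted p = 0.0433). *Ryr1* passed without TG L 4 or TG L 5 (adjusted p = 0.00492 and 0.0191) but not without any 1 of the other 7 libraries (0.0545 to 0.0941). *Cacna1s* passed without TG L 4 or TG L 5 (adjusted p = 0.00913 and 0.0141) but not without any 1 of the other 7 libraries (0.056 to 0.0945). *Pvalb* passed without TG L 4 or TG L 5 (adjusted p = 0.0142 and 0.02) but not without any 1 of the other 7 libraries (0.0666 to 0.108).

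Energy comes from creatine kinase, glycogen and glycolysis, and myoglobin stores oxygen. *Ckm*, for creatine kinase (ENSMUSG00000030399, chr7:19404776-19422841), stood at 3728, 5221 and 5129 CPM in WT, 3648 and 4199 CPM in TG NL, and 1003, 3.53, 50.8 and 221 CPM in TG L skin. *Pygm*, for glycogen phosphorylase (ENSMUSG00000032648, chr19:6384399-6398459), stood at 1389, 1791 and 1851 CPM in WT, 1260 and 1515 CPM in TG NL, and 274, 1.87, 19.7 and 65.1 CPM in TG L skin. *Eno3*, for muscle enolase (ENSMUSG00000060600, chr11:70657202-70662513), stood at 1725, 1979 and 2238 CPM in WT, 1347 and 1539 CPM in TG NL, and 415, 5.57, 23.7 and 85.5 CPM in TG L skin. No TG L library reached a WT or TG NL library for these genes. *Pygm* fell in 4 of 4 TG L libraries against WT (log2 fold change -4.22, SE 1.28, adjusted p = 0.0296), as did *Eno3* (log2 fold change -3.90, SE 1.21, adjusted p = 0.0318) and the phosphoglycerate mutase *Pgam2* (log2 fold change -3.81, SE 1.32, adjusted p = 0.0476). *Ckm* missed the threshold, with all 4 lower (log2 fold change -3.88, SE 1.39, adjusted p = 0.054), and passed without TG L 4 (adjusted p = 0.0111) or TG L 5 (adjusted p = 0.0269), and not without any other library (0.08 to 0.131). The myoglobin gene *Mb* stood at 559, 546 and 658 CPM in WT, 383 and 313 CPM in TG NL, and 323, 0.666, 18.8 and 35.4 CPM in TG L skin. *Mb* was the fast or all-fibre member with the largest part retained in TG L 4, 54.9% of the WT mean, where it lay above TG NL 3 (adjusted p = 0.162 against WT, log2 fold change -2.64, lower in 4 of 4). *Mb* passed only without TG L 4 (adjusted p = 0.0105), of the 9 libraries left out in turn. *Pygm* no longer passed without WT 8, WT 9, WT 10, TG L 6 or TG L 7 (adjusted p = 0.0551, 0.0611, 0.0615, 0.057 and 0.0838). *Eno3* passed without TG L 4 or TG L 5 (adjusted p = 0.00297 and 0.0237) but not without any 1 of the other 7 libraries (0.0509 to 0.0889). *Pgam2* passed without TG L 4 or TG L 5 (adjusted p = 0.0056 and 0.0273) but not without any 1 of the other 7 libraries (0.0723 to 0.121).

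Slow fibres use their own troponins, light chains and heavy chain, and all of these genes but *Myoz2* stayed under 7 CPM in every skin library. *Myoz2*, for the calsarcin of slow fibres at the Z-disc (ENSMUSG00000028116, chr3:123006206-123035015), stood at 19.4, 24.7 and 33.1 CPM in WT, 16.1 and 14 CPM in TG NL, and 11.8, 0, 0.353 and 2.09 CPM in TG L skin. It made up 96.1%, 98.4% and 81.3% of the summed CPM of the 7 slow genes in WT skin and had every TG L library below every other library. *Myoz2* did not pass against WT (log2 fold change -2.84, SE 1.26, adjusted p = 0.103, lower in 4 of 4), and with 1 library left out it passed only without TG L 4 (adjusted p = 0.00637). *Tnnt1*, the slow troponin T gene (ENSMUSG00000064179, chr7:4504570-4516382), stood at 0.411, 0.19 and 2.5 CPM in WT, 6.57 and 0.613 CPM in TG NL, and 4.35, 1.11, 0.573 and 0.631 CPM in TG L skin. *Myl2*, for the slow regulatory light chain (ENSMUSG00000013936, chr5:122100951-122113472), stood at 0.0912, 0.0475 and 2.1 CPM in WT, 6.8 and 0.147 CPM in TG NL, and 3.86, 0.0493, 0.0441 and 0 CPM in TG L skin. *Myh7*, for the slow heavy chain (ENSMUSG00000053093, chr14:54970684-54994626), had 0, 0 and 53 counts in WT, 60 and 0 in TG NL, and 103, 7, 0 and 1 in TG L skin. These 3 genes were high together in WT 10, TG NL 2 and TG L 4, the groups overlapped, and none passed in TG L against WT skin (adjusted p = 0.657, 0.882 and 0.928, log2 fold changes 0.70, 0.43 and 0.27). Their fold changes turned negative without TG L 4 (-0.42, -4.56 and -2.81) and those of *Tnnt1* and *Myl2* were larger without WT 10 (2.46 and 3.79). For *Myh7* no fold is given without WT 10, since WT 8 and 9 had 0 counts. *Myl2* and *Myh7* were also negative without WT 8 (-0.10 and -0.32) or WT 9 (-0.13 and -0.33), and none of the 3 genes passed in any of these settings.

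*Tnni1*, the slow inhibitory troponin gene (ENSMUSG00000026418, chr1:135779434-135810989), stood at 0.114, 0.0475 and 0.668 CPM in WT, 0.65 and 0.0491 CPM in TG NL, and 2.53, 3.63, 0.859 and 3.51 CPM in TG L skin. It was the only one of the 43 genes above every WT and every TG NL library in all 4 TG L libraries (26% and 24.7% of all tested genes against WT and TG NL), and the only member highest in TG L 5. It rose in TG L against WT skin, higher in 4 of 4 libraries (log2 fold change 3.25, SE 1.03, adjusted p = 0.0333), and against TG NL skin it did not pass (log2 fold change 2.87, SE 1.18, adjusted p = 0.109, higher in 4 of 4). *Tnni1* no longer passed without WT 8, WT 9, TG L 5 or TG L 7 (adjusted p = 0.104, 0.0931, 0.057 and 0.0616). As counts, *Tnni1* had 5, 2 and 27 in WT, 34 and 2 in TG NL and 139, 147, 39 and 195 in TG L skin. Its mean level was small beside that of the fast inhibitory paralog, with means of 0.0768 CPM per kb for *Tnni1* and 1550 for *Tnni2* in WT skin, and of 0.731 and 112 in TG L skin. The TG L mean of *Tnni2* rested mostly on TG L 4, at 355 CPM per kb. In TG L 5 both genes were close, at 1.01 CPM per kb for *Tnni1* and 1.66 for *Tnni2*.

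Fast and slow genes were then set side by side as sums. The 15 fast genes summed to 27745, 32665 and 38239 CPM in WT, 26424 and 30112 CPM in TG NL, and 7965, 25.2, 448 and 1526 CPM in TG L skin. The 7 slow genes summed to 20.2, 25.1 and 40.7 CPM in WT, 32.1 and 14.9 CPM in TG NL, and 25.4, 5.06, 1.87 and 6.31 CPM in TG L skin. The 21 all-fibre genes summed to 32862, 39392 and 44564 CPM in WT, 25795 and 31426 CPM in TG NL, and 8175, 161, 488 and 1926 CPM in TG L skin. Fast and all-fibre sums were thus apart from the other groups in every TG L library, whereas the slow sum of TG L 4 lay inside the WT range. Per kilobase, the ratio of fast to slow sums was 2122, 2044 and 1298 in WT, 987 and 2812 in TG NL, and 398, 7.07, 269 and 382 in TG L skin. In CPM the mean ratio was 1205 ± 232 (SD, n = 3) in WT, 1422 ± 845 (SD, n = 2) in TG NL and 200 ± 134 (SD, n = 4) in TG L skin, and every TG L library was below every other on these scales. Taken between class medians, the groups overlapped, at 13147, 31792 and 1264 in WT, 1035 and 16338 in TG NL, and 176, 7.5, 445 and 1424 in TG L skin. In TG L 5 the low ratio of 4.98 went with *Tnni1* as 71.7% of the slow sum and no counts of *Myoz2*. In TG L 6 and 7 *Tnni1* was 45.9% and 55.7% of the slow sum. Without *Myoz2* and *Tnni1* the other 5 slow genes summed to 0.684, 0.356 and 6.92 CPM in WT, 15.3 and 0.858 in TG NL, and 11.1, 1.43, 0.661 and 0.703 in TG L skin. On that basis TG L 7 (1526 over 0.703) no longer lay below TG NL 2 (26424 over 15.3), so the separation depended on these genes. No p-value was computed over a sum.

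**Figure D3:**
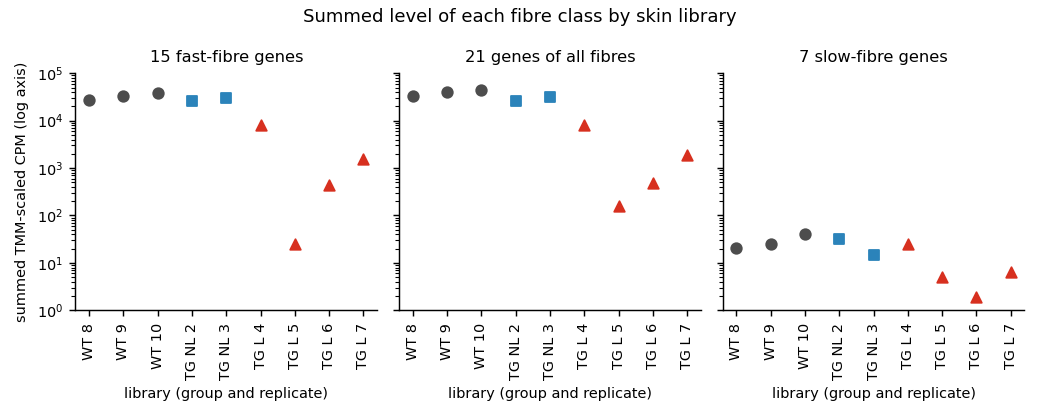
Summed TMM-scaled CPM of the fast, all-fibre and slow genes (log axis) in each of the 9 skin libraries, 1 point per library. The fast sum of the TG L libraries ran from 25.2 to 7965 CPM against at least 26424 CPM in the others, and the slow sum of the groups overlapped between 14.9 and 25.4 CPM.

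The comparison of TG L with WT skin asks what differs between a lesion and skin of mice without the transgene. All 43 genes passed the filter on low counts. By edgeR's test 19 of 43 passed, 44.2%, against 43.1% of all 19101 tested genes, so the number of calls was near the background. By direction, 18 fell (41.9%, against 20.2% of all tested genes) and 1 rose, *Tnni1* (23% of all genes). The 18 were *Myh1*, *Myh2*, *Actn3*, *Mybpc2*, *Pvalb*, *Mylk2*, *Acta1*, *Tpm2*, *Ttn*, *Mybpc1*, *Ryr1*, *Pygm*, *Eno3*, *Xirp1*, *Cacna1s*, *Myom1*, *Des* and *Pgam2*. Fold changes were negative for 38 of 43 genes, against 46.5% of all tested genes. The median log2 fold change of the 43 was -3.79, against 0.06 over all tested genes, and their median standard error was 1.36 against 0.23. For 37 of 43 genes every TG L library was below every WT library, which held for 23.4% of all tested genes. This count was 38 without TG L 4 and 37 without TG L 5. At an unadjusted p under 0.05 there were 34 members, against 51.7% of all genes (39 without TG L 4, 37 without TG L 5 and 12 without TG L 7). By class, 6 of 15 fast genes passed (median -3.89), 12 of 21 all-fibre genes (median -3.86) and 1 of 7 slow genes (median 0.27). The number of fast genes that fell was 15 without TG L 4, 13 without TG L 5, 1 without WT 8, WT 9, WT 10 or TG L 6, 2 without TG NL 2, 3 without TG NL 3 and 0 without TG L 7. For all-fibre genes it was 21 without TG L 4, 18 without TG L 5, 3 without WT 8 or TG L 6, 2 without WT 9 or WT 10, 4 without TG NL 2 or TG NL 3 and 1 without TG L 7. Of slow genes 2 fell without TG L 4, and *Tnni1* did not pass without WT 8, WT 9, TG L 5 or TG L 7. Whether the fold changes of fast and slow genes differ was not tested.

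The number of calls against WT rested on single libraries. Without TG L 4 it was 39 of 43 and without TG L 5 it was 31. It was 5 without TG L 6 and 1 without TG L 7, when only *Tpm2* passed. Leaving out a WT library gave 4, 3 and 4 calls without WT 8, 9 and 10. TG NL libraries enter this comparison only through the filter, the scaling and the shared estimate of spread. Leaving out either of them also lowered the number of calls. Median fold changes moved less, from -5.61 without TG L 4 to -3.38 without TG L 5. DESeq2 called 15 members and gave no adjusted p for 23 of the 43. Of the 19 genes called by edgeR it called 7, and the other 12 had no adjusted p. Without a filter on low counts 2 members passed (*Tpm2* and *Des*), with the 2 groups fitted alone 12 did, and only *Tpm2* did when edgeR's glmTreat tested for changes beyond 1 on the log2 scale. The share of all tested genes that passed in these settings is not given, so the counts do not set these members apart.

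**Figure D4:**
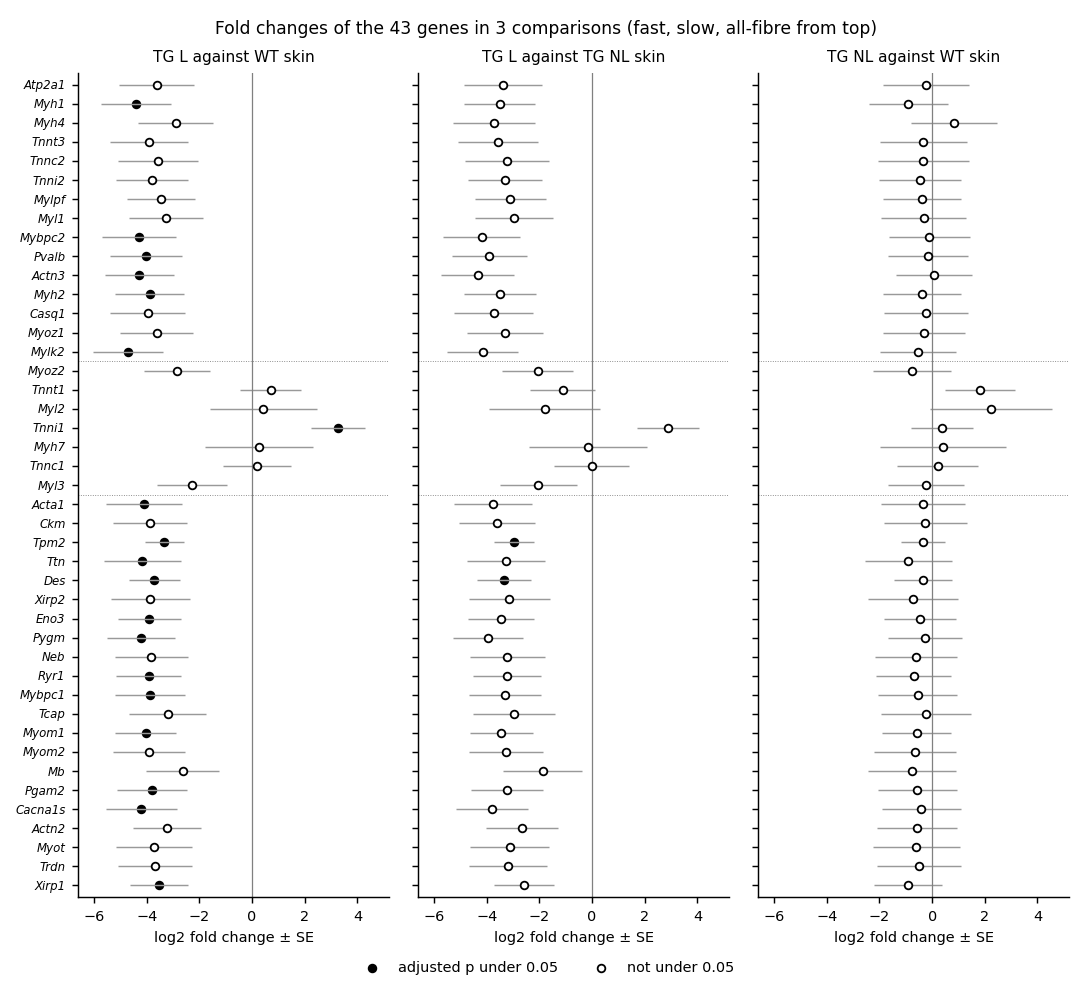
Log2 fold changes with standard errors of the 43 genes in 3 comparisons of skin, filled where the adjusted p of edgeR's test was under 0.05. In TG L against WT skin 18 genes fell and *Tnni1* rose, in TG L against TG NL skin *Tpm2* and *Des* fell, and in TG NL against WT skin 0 genes passed.

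TG L against TG NL skin compares lesion and uninvolved skin of the same genotype, and it shares the TG L libraries with the comparison above. Here 2 of 43 passed by edgeR's test (4.65%, against 25% of all tested genes), *Tpm2* and *Des*, both lower in TG L skin (11.8% of all genes). Their fold changes, -2.97 and -3.35, were near the members' median of -3.27. Their spread was narrower, with TG L 8.6 and 19.7 times apart against a median of 270, and SE of 0.77 and 1.02. At an unadjusted p under 0.05 there were 22 members, against 39% of all genes (39 without TG L 4, 32 without TG L 5, 14 without WT 8 or WT 9, 8 without TG NL 2, 6 without TG NL 3, 11 without TG L 6 and 4 without TG L 7). Fold changes were negative for 42 of 43 genes, against 47.8% of all tested genes. The median log2 fold change was -3.27, against 0.03 over all tested genes, with a median standard error of 1.42 against 0.26. Every TG L library was below both TG NL libraries for 36 of 43 genes (24.7% of all genes), all but *Mb* and 6 slow genes, and for 39 without TG L 4 and 36 without TG L 5. The adjusted p of the 15 fast genes ran from 0.0515 (*Actn3*) to 0.176 (*Myl1*), and 15 of them passed without TG L 4 and 5 without TG L 5. Without TG L 4 the count was 35, without TG L 5 it was 8, and without TG L 7, TG NL 2 or TG NL 3 it was 0. It was 1, *Tpm2*, without TG L 6 or any of WT 8, 9 and 10. DESeq2 called 6 members (*Actn3*, *Cacna1s*, *Eno3*, *Pvalb*, *Tnni1* and *Tpm2*) and gave no adjusted p for 23. With these 2 groups fitted alone, without a filter or by glmTreat, no member passed. Here too the share of all tested genes in each setting is not given.

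TG NL against WT skin asks what the genotype changes outside lesions, and it shares its libraries with both comparisons above. By edgeR 0 of 43 members and 0% of all tested genes passed. At an unadjusted p under 0.05 there were also 0 members, against 7.67% of all genes, and DESeq2 called 0 but gave no adjusted p for 24 of the 43. Without WT 10 the unadjusted count was 1, *Tnnt1* (log2 fold change 3.57, adjusted p = 0.924, higher in 2 of 2 libraries than in WT 8 and 9). The median log2 fold change was -0.35, against -0.00 over all tested genes, and 36 of 43 were negative (50.1% of all genes). For 21 of 43 genes both TG NL libraries were below all 3 WT libraries (16.3% of all genes), 14 of them all-fibre, 6 fast and 1 slow, and without WT 8 it was 33 genes. *Myh4* lay above instead (log2 fold change 0.82, SE 1.64, adjusted p = 0.917). For *Myh1*, *Ttn* and *Xirp1*, the members with the lowest fold changes, it was -0.90, -0.90 and -0.92 on the log2 scale, lower in 2 of 2 libraries (adjusted p = 0.895, 0.909 and 0.871).

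Genes of the muscle fibre outside the 43 were followed as lists, and counts that fell stand beside 20.2% of all tested genes against WT and 11.8% against TG NL. The 19 other sarcomere genes, with *Cmya5* the most abundant, summed to 4755, 5184 and 6316 CPM in WT, 3161 and 3987 CPM in TG NL, and 1277, 19.5, 75.4 and 264 CPM in TG L skin. Of them 12 fell in TG L against WT skin and 3 of 19 against TG NL skin (*Unc45b*, *Lmod2* and *Capn3*), the latter near the share of all genes. With 1 library left out, the count against WT was 19 without TG L 4, 14 without TG L 5, 4 without WT 8 or WT 10, 5 without WT 9 or TG L 6, 6 without TG NL 2 or TG NL 3 and 3 without TG L 7. Against TG NL it was 19 without TG L 4, 3 without TG L 5 and 0 without TG NL 2 or TG NL 3. The 14 genes for coupling of excitation to contraction, led by *Srl* and *Tmem38a*, summed to 1811, 2156 and 2494 CPM in WT, 1580 and 1655 CPM in TG NL, and 584, 35.1, 48.6 and 129 CPM in TG L skin. Of these, 13 fell against WT and 5 against TG NL (*Jph2*, *Cacnb1*, *Tmem38a*, *Stac3* and *Jph1*). Against WT the count was 14 without TG L 4, 12 without TG L 5, 5 without WT 8, WT 10, TG L 6 or TG L 7 and 6 without WT 9, TG NL 2 or TG NL 3. Against TG NL it was 13 without TG L 4, 4 without TG L 5, 1 without WT 8 or WT 9, 2 without WT 10 or TG L 6 and 0 without TG NL 2, TG NL 3 or TG L 7. Both lists had the order of the 43 genes, high in TG L 4 and low in TG L 5.

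Regulators of the muscle lineage were followed too, and here as well 20.2% of all tested genes fell and 23% rose against WT, and 11.8% fell against TG NL. The 10 myogenic regulators summed to 350, 391 and 447 CPM in WT, 267 and 261 CPM in TG NL, and 109, 13.8, 22.4 and 36.3 CPM in TG L skin, 79% of it over the 9 libraries from *Mef2c*, which other cells of skin express too. *Myod1*, the transcription factor that commits cells to muscle, stood at 7.23, 5.91 and 9.1 CPM in WT, 3.88 and 2.7 CPM in TG NL, and 0.747, 0, 0.022 and 0.162 CPM in TG L skin. *Myf5* and *Pax7*, markers of muscle precursors, had few counts in every library. *Myf5* had 10, 4 and 20 counts in WT, 12 and 4 in TG NL, and 3, 0, 0 and 0 in TG L skin. *Pax7* had 12, 16 and 28 counts in WT, 17 and 7 in TG NL, and 1, 0, 0 and 0 in TG L skin. In TG L against WT skin 8 of the 10 fell, *Myod1* among them (log2 fold change -4.91, SE 0.96, adjusted p = 0.00449, lower in 4 of 4), and *Pax3* rose (log2 fold change 1.52, SE 0.50, adjusted p = 0.0348, higher in 4 of 4). *Pax3* did not pass without TG L 4, 5 or 7, nor without WT 8, 9 or 10. The number that fell against WT was 9 without TG L 4, 8 without TG L 5 and 5 without WT 10. Against TG NL skin 5 fell, and 9 without TG L 4, 5 without TG L 5, 0 without TG NL 2, 1 without TG NL 3, 3 without TG L 6 and 2 without TG L 7. The 8 developmental muscle genes, led by *Myh8* and *Tnnt2*, summed to 10.2, 10 and 21.2 CPM in WT, 8.89 and 9.44 CPM in TG NL, and 9.45, 4.42, 3.3 and 4.29 CPM in TG L skin. *Myh8* and *Myl4* of the 5 that were tested fell against WT, *Myl4* also against TG NL, and *Chrng* had no counts. The number against WT was 4 without TG L 4, 2 without TG L 5 and 1 without WT 10, and *Myl4* did not pass against TG NL without TG NL 2 or TG NL 3.

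The 9 genes of the neuromuscular junction summed to 116, 97.5 and 111 CPM in WT, 114 and 115 CPM in TG NL, and 80.4, 57.2, 56.8 and 34.6 CPM in TG L skin. *Lrp4*, which is not restricted to muscle, gave 79.7% of this sum over the 9 libraries, and the other 8, with *Rapsn* next, all fell against WT, 4 of them also against TG NL (20.2% and 11.8% of all tested genes). The number against WT was 9 without TG L 4, 8 without TG L 5 and 5 without WT 10, and against TG NL it was 8 without TG L 4, 4 without TG L 5 and 1 without TG NL 2 or TG NL 3. The 11 genes of the dystrophin complex, led by *Dag1* and *Sspn*, summed to 770, 806 and 887 CPM in WT, 639 and 638 CPM in TG NL, and 351, 273, 282 and 339 CPM in TG L skin. All 11 fell against WT (11 without TG L 4 and 11 without TG L 5) and 7 against TG NL (9 without TG L 4, 6 without TG L 5 and 2 without TG NL 2 or TG NL 3). In TG L 5 these sums stood at 52.9% and 33.3% of the WT mean, and each rested on 1 gene. Without *Lrp4* the other 8 junction genes stood at 12.5%, and without *Dag1* the other 10 of the dystrophin complex at 15.4%. Of the genes for muscle loss, the ubiquitin ligases *Trim63* and *Fbxo32* and the growth inhibitor *Mstn*, none was higher in TG L skin. They summed to 362, 402 and 489 CPM in WT, 315 and 401 CPM in TG NL, and 111, 97.2, 53.4 and 50.8 CPM in TG L skin, where *Fbxo32* gave most of the sum. Without it the other 2 summed to 196, 223 and 253 CPM in WT, 185 and 223 CPM in TG NL, and 21.7, 0.641, 2.18 and 10.8 CPM in TG L skin. All 3 fell against WT (log2 fold changes -4.54, -1.48 and -4.72, adjusted p = 0.00673, 0.00614 and 0.00629 from edgeR, each lower in 4 of 4) and against TG NL. Against WT all 3 passed without each library in turn, and against TG NL the count was 3 without TG L 4, 3 without TG L 5, 0 without TG NL 2 or TG NL 3 and 1 without TG L 6.

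**Figure D5:**
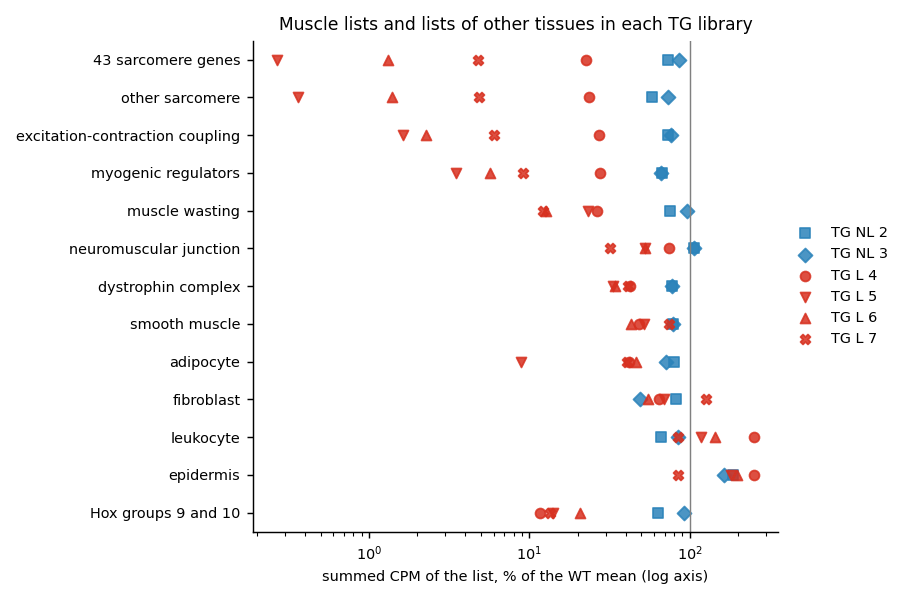
Summed CPM of the plotted gene lists in the TG NL and TG L libraries as a percentage of its WT mean (log axis). The 43 sarcomere genes lay between 0.267% and 22.5% in TG L libraries, and the lists for fibroblasts, leukocytes and epidermis between 55% and 252%.

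Lists for other tissues of skin were followed beside the muscle genes. The 8 adipocyte genes, led by *Fabp4* and *Cfd*, summed to 10962, 9215 and 7441 CPM in WT, 7383 and 6541 CPM in TG NL, and 3873, 817, 4270 and 3753 CPM in TG L skin, with 4 lower against WT, beside 20.2% of all tested genes (3 without TG L 4, 7 without TG L 5 and 1 without WT 8 or WT 9). Against TG NL 0 passed in edgeR's test with all libraries, 5 without TG L 5 and 1 without TG L 6 or TG L 7. TG L 5 was thus the lowest library for fat as well as for muscle genes. The 10 smooth muscle genes, led by *Synpo2* and *Acta2*, summed to 800, 802 and 818 CPM in WT, 639 and 634 CPM in TG NL, and 389, 417, 350 and 604 CPM in TG L skin. The lower sum rested on *Synpo2*. Without it the other 9 genes summed to 311, 392 and 387 CPM in WT, 349 and 354 CPM in TG NL, and 301, 398, 324 and 531 CPM in TG L skin, and the groups overlapped. Of the 10, 3 fell against WT (*Myh11*, *Lmod1* and *Synpo2*) and 2 rose (*Smtn* and *Tagln*), near the 20.2% and 23% of all tested genes. Against TG NL 2 fell (*Lmod1* and *Synpo2*) and 1 rose (*Tagln*), beside 11.8% and 13.2% of all tested genes. The number that rose against WT was 2 without TG L 4, 2 without TG L 5 and 1 without WT 8 or WT 9, and the number that fell 3 without TG L 4 and 2 without TG L 5. Against TG NL these were 2 without TG L 4, 1 without TG L 5 and 0 without TG NL 2 or TG NL 3 for genes that rose, and 3 without TG L 4, 2 without TG L 5 and 1 without TG NL 2 or TG NL 3 for genes that fell. The 7 heart genes summed to under 8 CPM in every library, with *Nppa* at 0 throughout and *Nppb* higher in TG L skin in both comparisons, though not against TG NL without TG NL 3. The part of these tissues in the muscle result was not tested.

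Genes of the surface and of cells between were followed as well, and of all tested genes 23% rose against WT and 13.2% against TG NL. The 10 hair shaft genes (of 11 names looked for), led by *Tchh* and *Krt71*, summed to 7.32, 6.36 and 6.92 CPM in WT, 7.47 and 19.4 CPM in TG NL, and 5734, 13627, 16253 and 22052 CPM in TG L skin, and all 10 rose in both comparisons, also without each library in turn. The 8 epidermal genes, led by *Krt10* and *Krt5*, summed to 11591, 10427 and 9371 CPM in WT, 19483 and 17111 CPM in TG NL, and 26155, 18984, 20696 and 8839 CPM in TG L skin, with *Krt14*, *Krt1*, *Ivl* and *Flg* higher against WT and *Ivl* and *Flg* against TG NL. The number against WT was 4 without TG L 4, 4 without TG L 5 and 8 without TG L 7, and against TG NL 2 without TG L 4, 2 without TG L 5, 1 without TG NL 2 or TG NL 3 and 4 without TG L 7. The 8 fibroblast genes, led by *Col3a1* and *Col1a2*, summed to 4900, 6751 and 7699 CPM in WT, 5301 and 3175 CPM in TG NL, and 4129, 4457, 3546 and 8217 CPM in TG L skin, and 2 of the 8, *Dcn* and *Dpt*, fell against WT, near the 20.2% of all tested genes (1 without TG L 4, 2 without TG L 5 and 1 without WT 9, WT 10 or TG NL 2). The 8 leukocyte genes, led by *Ptprc* and *Cd68*, summed to 98.2, 165 and 154 CPM in WT, 91.9 and 117 CPM in TG NL, and 350, 163, 199 and 117 CPM in TG L skin. Of these, *Cd3e*, *Cd68*, *Itgam* and *Ms4a1* had negative log2 fold changes against WT (-0.46, -0.62, -0.30 and -0.26) and did not pass. *Cd4*, *Ptprc*, *Cd8a* and *S100a8* rose against WT and *Cd4* and *S100a8* against TG NL. The number against WT was 3 without TG L 4, 4 without TG L 5 and 2 without WT 10, and against TG NL 2 without TG L 4, 2 without TG L 5, 1 without WT 8, WT 9 or TG NL 2, 0 without TG NL 3 and 4 without TG L 7. In TG NL against WT skin 0 genes of any list passed in edgeR's test. How much each of these tissues bears on the muscle result was not tested.

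A list of *Hox* genes of groups 9 and 10, which mark position along the body axis, was added after the data were seen, because the labels give no body site and lesions were mostly on the face. Its 7 genes, led by *Hoxd9* and *Hoxa9*, summed to 45.5, 37.7 and 36.6 CPM in WT, 25.3 and 36.6 CPM in TG NL, and 4.63, 5.65, 8.24 and 5.39 CPM in TG L skin. *Hoxa9* stood at 10.2, 7.65 and 7.05 CPM in WT, 3.27 and 8.09 CPM in TG NL, and 0, 0.0493, 0.705 and 0.18 CPM in TG L skin. *Hoxc10* stood at 3.88, 3.82 and 3.71 CPM in WT, 0.726 and 3.31 CPM in TG NL, and 0, 0.0987, 0.0441 and 0.252 CPM in TG L skin. All TG L libraries lay below all WT and TG NL libraries in the summed level. Without *Hoxd9* the other 6 genes summed to 35.2, 27.4 and 25.1 CPM in WT, 15.8 and 27.2 CPM in TG NL, and 0.51, 1.83, 5.09 and 1.86 CPM in TG L skin. In edgeR's test 6 of the 7 fell against WT, among them *Hoxa9* (log2 fold change -5.15, adjusted p = 0.00349, lower in 4 of 4) and *Hoxc10* (-5.21, adjusted p = 0.00187, lower in 4 of 4), and 5 fell against TG NL (20.2% and 11.8% of all tested genes). Against WT 6 passed without each library in turn, and against TG NL the count was 5 without TG L 4, 4 without TG L 5, 3 without TG NL 2 and 1 without TG NL 3. Lesion and any difference in body site cannot be told apart in these samples, and the part of body site in the muscle result was not tested.

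Likeness to the 43 genes was measured as Pearson's r of log2 CPM with their mean log2 CPM over the 9 skin libraries, which share their groups and the wide spread among TG L libraries, so r describes these libraries only. The 10 most alike of 19058 other tested genes were *Trim55* (r = 0.9981), *Art1* (0.9979), *Cacng1* (0.9976), *Fbxo40* (0.9976), *Hjv* (0.9974), *Jsrp1* (0.9974), *Rpl3l* (0.9972), *Ppp1r3a* (0.9969), *Dhrs7c* (0.9968) and *Smtnl1* (0.9967). *Trim55* stood at 13.1, 14 and 19.4 CPM in WT, 13.9 and 10.4 CPM in TG NL, and 4.35, 0, 0.242 and 0.757 CPM in TG L skin, and *Art1* at 83.2, 87.1 and 115 CPM in WT, 66.3 and 67.7 CPM in TG NL, and 26.7, 0.0987, 1.39 and 3.78 CPM in TG L skin. Both repeated the order of the TG L libraries seen for *Myh4* or *Acta1*. Of the members themselves, which enter the mean, 37 had r over 0.9. The other 6 were slow genes, with r = 0.763 for *Myl3*, 0.503 for *Myl2*, 0.352 for *Tnnc1*, 0.204 for *Myh7*, 0.138 for *Tnnt1* and -0.638 for *Tnni1*. Outside the list, 747 genes had r over 0.9 and 186 under -0.9. By position, the 43 genes lay on 16 chromosomes, and besides the heavy chain genes only *Tnni2* with *Tnnt3* (54.4 kb apart on chromosome 7) and *Tnni1* with *Cacna1s* (242 kb apart on chromosome 1) were neighbours within 500 kb.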

How the data were processed

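The authors trimmed paired reads of poly-A libraries (151 bp, NovaSeq X Plus) with cutadapt 4.8, checked them with FastQC 0.11.8 and MultiQC 1.20, aligned them to GRCm38 with STAR 2.7.8a and deposited RSEM 1.3.3 expected counts per gene, which are not normalized and were rounded to whole numbers here. The annotation release is not stated, so positions and exon lengths came from GENCODE vM21, matched for 99.5% of genes.

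In R 4.3.3, edgeR 4.0.16 was run on all 9 skin libraries together: filterByExpr (10 counts, 15 in total), TMM, a robust quasi-likelihood fit, an F-test for each pair of groups, and Benjamini-Hochberg adjustment over 19101 genes with a threshold of 0.05. Adjusted p-values are edgeR's unless DESeq2 1.42.0 is named. Standard errors are the fold change divided by the square root of F. Sums, shares, r and Wilson intervals were computed in Python 3.11.15.

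Named with every value were the 4 genes of highest CPM in each class, the 4 adult heavy chains and the 12 smallest adjusted p, with other genes that passed given by their test. From each other list came the 2 of highest CPM and genes that passed, and beside them the 10 genes of highest r. *Mb* with every value, genes listed at 0, the *Hox* genes and the promoters were chosen after their values were seen. The 43 genes and the lists were chosen with earlier results of these data known.

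Alternatives were DESeq2, RLE or upper-quartile scaling, TMM without the 43 genes, no filter, at least 10 counts in every library, the compared groups alone, no robust estimation, glmTreat, an adjusted p under 0.01, length-scaled counts, class medians, raw shares and each library left out in turn. Raw shares for the counts of genes whose groups do not overlap, leaving out each library there, leaving out each library for the counts of the lists, of each class and at an unadjusted p and for genes tested outside the named ones, and sums without a list's most abundant gene were added after the data were seen.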

Additional observations from a re-analysis of the deposited data

Results flagged for a closer look

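Of 68 values tested for a library far from the others in the group of 4 TG L libraries, 15 stood out by the gap to the nearest library relative to the whole range. The chance rate of 1 in 20 assumes normally distributed values. It does not hold here, since values were not taken as logs and a wide range favours the highest library. The members' mean log2 CPM was 6.95, -0.12, 2.86 and 4.59 in TG L 4, 5, 6 and 7, with the widest gap between TG L 5 and 6. The 68 values come from the same libraries and are not independent. In 13 of the 15, TG L 4 was far above the others in CPM. It held 898 CPM of *Myh1* (others 4.59, 95.4 and 134) and 1913 CPM of *Atp2a1* (4.44, 119 and 314). It held 517 CPM of *Myl1* (1.8, 21.2 and 77) and 114 CPM of *Myoz1* (0.271, 5.82 and 18.8). For *Actn2* it held 155 CPM (0.888, 7.98 and 23.5), for *Myot* 100 CPM (0.197, 3.68 and 16.2), for *Tcap* 253 CPM (0.395, 9.32 and 35.5) and for *Mb* 323 CPM (0.666, 18.8 and 35.4).

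Among slow genes, TG L 4 held 1.88 CPM of *Myh7* (others 0.173, 0 and 0.018), 3.86 CPM of *Myl2* (0.0493, 0.0441 and 0) and 0.146 CPM of *Myl3* (0, 0 and 0). It also held 4.35 CPM of *Tnnt1* (1.11, 0.573 and 0.631) and 0.856 CPM of *Tnnc1* (0.0987, 0.0441 and 0.0541). TG L 5 stood apart for the share of *Myh7* among 4 heavy chains, 2.06% on 7 counts (0.0797%, 0% and 0.00432% in the others), and for the adipocyte list, 817 CPM (3873, 4270 and 3753).

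In lymph nodes, which no comparison here uses, *Pvalb* reached 2.83 CPM in TG UV node 11, above the highest untreated WT node at 0.0293 CPM, both over the raw library total.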

How the results depend on the processing

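No paired analysis was possible because the skin groups share no replicate numbers and no mouse is named. In TG L against WT skin, 19 genes passed. The count was 15 with DESeq2, 20 with RLE, 18 with upper-quartile scaling, 20 with TMM without the 43 genes, 23 of 32 tested with at least 10 counts in every library and 25 without robust estimation. It was 2 without a filter, 12 of 39 tested with the compared groups alone, 1 with glmTreat and 1 at an adjusted p under 0.01. Leaving out 1 library gave 1 to 39. *Tpm2* passed in each of these settings. In TG L against TG NL skin, 2 passed, and 6 with DESeq2, 4 without robust estimation, and 0 without a filter, with the compared groups alone, with glmTreat or at an adjusted p under 0.01. Leaving out 1 library gave 0 to 35. In TG NL against WT skin the count was 0 in every setting. Where 1 TG NL library was left, it was assumed to vary like the other groups. Apart from fewer genes or samples in a setting, the cause was not tested. The share of all tested genes that passed in each setting is not given, so a shift in all genes is not separated from one in these.

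Median fold changes kept their sign: -3.92 to -3.79 for TG L against WT skin (-5.61 to -3.38 without 1 library), -3.33 to -3.25 for TG L against TG NL skin (-5.22 to -2.85) and -0.42 to -0.35 for TG NL against WT skin (-0.49 to -0.26). The mean ratio of fast to slow sums moved in WT skin from 1205 to 1822 with length-scaled counts and to 15401 with class medians, in TG NL skin from 1422 to 8686 with class medians, and in TG L skin from 200 to 513, and with class medians TG L 7 (1424) lay above WT 10 (1264) and TG NL 2 (1035). Without 1 library it was 1121 to 1337 in WT, 824 to 2019 in TG NL and 162 to 265 in TG L skin. Raw shares in place of TMM gave 37 and 36 genes below WT and below TG NL again, and leaving out 1 library 37 to 38 and 36 to 40. For the 27 named genes, 311 of 505 values against WT kept their side of the threshold, 175 lost a call, 12 gained one and 7 moved without one. Against TG NL it was 446, 20, 35 and 6 of 507, and for TG NL against WT skin 496 of 507 kept their side and 11 moved. Depth limits the slow genes: 4 of 7 had 3 counts or fewer in WT 9, TG NL 3, TG L 6 and TG L 7.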

Other observations

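The 12 lymph node libraries enter no comparison here, and their CPM are counts over the raw library total, without TMM. The 43 genes summed to between 41.8 and 66 CPM in them, with a median of 49.8 CPM, and 27 of the 43 stayed under 1 CPM in every node. *Mb* and *Myot* had no counts in any node. *Eno3*, for muscle enolase, was the most abundant member, with a lowest, median and highest level of 12, 16.8 and 24.3 CPM over the nodes. *Des*, for desmin, had 0.978, 5.17 and 14.3 CPM, *Neb*, for the thin filament protein nebulin, 2.12, 4.46 and 10.1 CPM, and *Pygm* 2.4, 3.59 and 4 CPM.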
